A study of Mus musculus with 36 samples.

Results

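The 10 genes described here encode enzymes of the intestinal brush border, the carpet of microvilli on absorptive enterocytes, and were taken by name out of the 52636 genes counted. They are the disaccharidases lactase (Lct), sucrase-isomaltase (Sis), trehalase (Treh) and maltase-glucoamylase (Mgam), intestinal alkaline phosphatase (Alpi), and the peptidases Anpep (aminopeptidase N), Enpep (glutamyl aminopeptidase), Dpp4 (dipeptidyl peptidase 4), Mep1a and Mep1b (the alpha and beta subunits of meprin). Enterocytes anchor these enzymes in or at the apical membrane, where they split sugars and peptides into units that neighbouring transporters take up. Lactase is the disaccharidase of the suckling period, whereas sucrase-isomaltase and trehalase are known to rise in rodents towards weaning. HNF4, CDX and GATA factors are known to drive many of these genes, and Blimp-1, encoded by Prdm1, is known as a factor of the neonatal enterocyte.

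RNA of whole intestines from embryos at E18.5, and of mouse embryonic fibroblasts (MEFs), was sequenced in 12 groups of 3 libraries. The D387A set held Mlkl-/- controls, Casp8 1xDA/1xDA embryos whose label names no other mutation, and Casp8 1xDA/1xDA Cflar-/- Mlkl-/- embryos without or with further loss of Casp1, of Casp1 and Ifnar1, or of Casp1 and Fadd. The C362A set held its own Mlkl-/- controls and Casp8 C362A/C362A Mlkl-/- embryos without or with loss of Casp1, or with loss of Cflar. The MEFs were Mlkl-/- or Casp8 1xDA/1xDA Cflar-/- Mlkl-/-. In these names DA stands below for Casp8 1xDA/1xDA, the change D387A at a site where caspase-8 cleaves itself, and CA for Casp8 C362A/C362A, which removes the catalytic cysteine. Cflar encodes cFLIP, the partner of caspase-8, and Mlkl the executioner of necroptosis, so all groups except DA lacked MLKL and the controls were not wild type. The comparisons ask what loss of cFLIP or of caspase-8 activity does in the absence of necroptosis, and how much of it depends on caspase-1, the type I interferon receptor or FADD. All deletions were present in every cell of the embryo, and the Cflar deletion in the C362A set came from another line than that in the D387A set. Titles give the DA embryos and the 3 groups that lack Casp1 in the D387A set other numbers than the controls, and what these numbers mark is not given, so an effect of such a grouping and of genotype cannot be told apart.

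Sequences upstream of 4 of these genes are shown first, since these genes parted ways below: Lct and Alpi were far lower in DA Cflar-/- Mlkl-/- intestines than in controls, and Mgam and Sis were not. Each is the stretch of 250 bases before the start site on the coding strand, from the RefSeq table of build GRCm38.p6, which held 9 of the 10 genes and not Mep1b. Capitals mark matches, on either strand, to short letters that HNF4, CDX and GATA factors are known to bind, which were picked with the sequences in view. For HNF4 these letters were AAAGTCC. For the CDX factors they were TTTATG. Those for the GATA factors were AGATAA.
Lct, chr1:128328319-128328568, minus strand: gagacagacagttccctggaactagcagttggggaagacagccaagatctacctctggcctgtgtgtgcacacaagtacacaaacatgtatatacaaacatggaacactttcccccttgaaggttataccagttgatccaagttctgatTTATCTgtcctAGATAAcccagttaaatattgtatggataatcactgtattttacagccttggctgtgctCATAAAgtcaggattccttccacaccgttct
Alpi, chr1:87101607-87101856, minus strand: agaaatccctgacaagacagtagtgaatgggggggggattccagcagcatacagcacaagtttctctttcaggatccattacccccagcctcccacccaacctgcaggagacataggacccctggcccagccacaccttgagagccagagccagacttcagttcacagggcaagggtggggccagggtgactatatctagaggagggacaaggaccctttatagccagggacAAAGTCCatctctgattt
Sis, chr3:72967864-72968113, minus strand: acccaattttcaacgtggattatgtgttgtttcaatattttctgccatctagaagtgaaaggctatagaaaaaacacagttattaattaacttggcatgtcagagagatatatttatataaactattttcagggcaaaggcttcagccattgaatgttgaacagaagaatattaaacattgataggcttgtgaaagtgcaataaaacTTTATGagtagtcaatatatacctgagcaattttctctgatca
Mgam, chr6:40628581-40628830, plus strand: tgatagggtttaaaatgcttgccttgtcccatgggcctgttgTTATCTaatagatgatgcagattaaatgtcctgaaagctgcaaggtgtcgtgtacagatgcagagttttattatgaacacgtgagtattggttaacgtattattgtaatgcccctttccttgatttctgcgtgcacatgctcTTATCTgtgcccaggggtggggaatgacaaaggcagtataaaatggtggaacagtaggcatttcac
The CDX type letters stood at bases 220 to 225 of the Lct window and at bases 208 to 213 of the Sis window, counted from its 5′ end, and in 10.8% of 32851 such windows of all genes. GATA type letters were found in the windows of Lct, Mgam and Dpp4 and in 9.99% of all windows. The HNF4 type letters were found in those of Alpi and Treh and in 3.58% of all. A match describes the letters and is not evidence of binding. In these 9 windows Lct and Sis shared the CDX type letters and Lct and Mgam the GATA type letters, though Lct fell and Sis and Mgam did not. The HNF4 type letters stood only in Alpi and Treh, which both fell. Since the letters were picked with the sequences in view and few genes did not fall, the matches cannot decide whether they separate these genes.

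The libraries held 17943524 to 32307629 reads on genes. Levels are given as RPKM, computed here from the deposited counts as reads corrected for the length of the gene and for library totals scaled by TMM, and for gene lists as CPM, which leave out the length. Casp1 lay at 0 to 0.191, 0.0406 to 0.212 and 0 to 0.0878 CPM in the 3 groups of the D387A set that lack it and at 0 to 0.0817 CPM in the one of the C362A set, against 62.1 to 66.5 and 49.6 to 67.7 CPM in the controls. Fadd lay at 0.659 to 1.01 CPM where it is deleted against 44.9 to 50.5 CPM in controls, and Ifnar1 at 33.2 to 37.9 against 82.3 to 85.1 CPM. Reads of Cflar and Mlkl remained in the embryos that lack them, at 33.8 to 38.5 CPM for Cflar and 22.2 to 26.9 CPM for Mlkl in DA Cflar-/- Mlkl-/- intestines, so counts over the whole gene do not check these labels. Summed over 10 general epithelial genes, the level was 6334 to 7276 CPM in the controls of the D387A set and 54.4 to 67.1 CPM in Mlkl-/- MEFs. Pancreas genes varied, with a sum over 8 genes of 12.7 to 59.9 CPM in those controls, 59.2 to 134 CPM in DA Cflar-/- Mlkl-/- Casp1-/- Ifnar1-/- and 14.6 to 224 CPM in CA Cflar-/- Mlkl-/- intestines, and the part of dissection in the results below was not tested. The 6 kidney genes, from an organ that also carries several of these peptidases, summed to at most 1.54 CPM in any intestine.

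In Mlkl-/- controls of the D387A set the enzymes spanned a wide range of levels per length. Alpi was highest at 518 ± 37.8 RPKM (SD, n = 3), followed by Anpep at 337 ± 26.4, Lct at 281 ± 28.7, Mep1a at 156 ± 15.1, Mep1b at 125 ± 1.54, Enpep at 95.4 ± 9.64, Dpp4 at 42.2 ± 3.36 and Mgam at 37.6 ± 4.44 RPKM. Treh at 0.894 ± 0.117 and Sis at 0.320 ± 0.0373 RPKM were hardly detected, with 30 to 41 and 33 to 40 reads per library. Neighbours in this order whose embryos overlapped were Dpp4 with Mgam, whereas the 3 Anpep values of 307 to 358 RPKM lay above all 3 Lct values of 248 to 303 RPKM. The controls of the C362A set gave the same order from Alpi (608 ± 105 RPKM) through Anpep (329 ± 45.8) to Lct (272 ± 36.9), then Mep1b (158 ± 21.8) just above Mep1a (149 ± 22.1), with overlapping embryos.

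DA Cflar-/- Mlkl-/- intestines, which differ from Mlkl-/- controls in Casp8 and Cflar together, had lost nearly all lactase and trehalase transcripts. Lct (Ensembl ENSMUSG00000026354, chromosome 1, 128284756 to 128328318, GRCm38) measured 303, 291 and 248 RPKM in the 3 controls and 0.958, 0.297 and 0.997 RPKM in DA Cflar-/- Mlkl-/- intestines. The mutant embryos retained 0.267% of the control mean, with 41 to 154 reads per library in place of 30679 to 37122, and the log2 fold change was -8.54 (SE 0.49, adjusted p = 1.88e-10). Trehalase, at the opposite end of the abundance range, nearly vanished: Treh (chromosome 9, 44673233 to 44686305) had 37, 30 and 41 reads in controls and 1, 1 and 1 reads in the mutants. The groups did not overlap, and 3 reads against 108 correspond to 2.32% of control (95% exact interval 0.471% to 6.96%, for counting error only). On the log2 scale, where the fitted value at so few reads depends on the prior count, Treh fell by 5.25 (SE 0.65, adjusted p = 2e-06). Exons of Treh overlap those of Phldb1 on the opposite strand, and whether the counting used strand is not given in the sources used here.

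The maltase did not share in this loss. Mgam (chromosome 6, 40628831 to 40769123) stood at 40.5, 39.8 and 32.5 RPKM in controls and at 56.1, 63.9 and 45.1 RPKM in DA Cflar-/- Mlkl-/- intestines. All 3 mutants lay above all 3 controls, by a log2 fold change of 0.55 (SE 0.15, adjusted p = 0.0037), which is below the 2-fold threshold for a call. Sucrase-isomaltase (Sis, chromosome 3, 72888557 to 72967863) was at 0.280, 0.353 and 0.328 RPKM in controls and 0.305, 0.255 and 0.329 RPKM in mutants. These overlapped, and the log2 fold change of -0.11 (SE 0.23, adjusted p = 0.715) had a 95% interval of -0.60 to 0.39. Of the 2 disaccharidases well expressed in control intestines Lct fell and Mgam did not, and of the 2 near the limit of detection Treh fell and Sis did not.

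**Figure D1:**
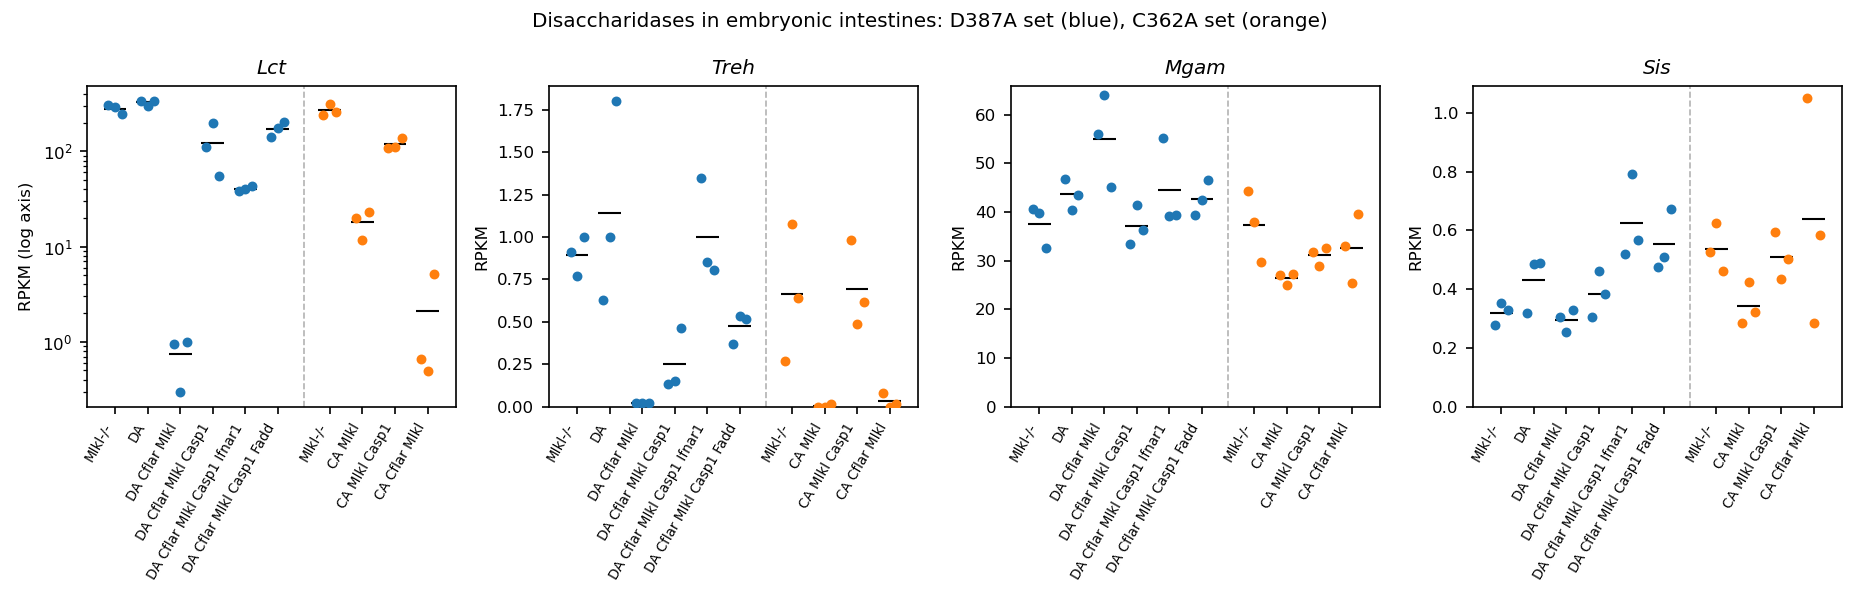
RPKM of the 4 disaccharidases (vertical axes, logarithmic for Lct and linear from 0 for the others) in each of 30 intestines by genotype, with points for embryos, bars for means of 3 and colours for the D387A set (blue) and the C362A set (orange); DA and CA mean homozygous Casp8 D387A and C362A, and the other names on the axis are deleted genes. Lct and Treh drop in DA Cflar Mlkl, CA Mlkl and CA Cflar Mlkl, while Mgam stays between 25.0 and 63.9 RPKM in every embryo.

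Alkaline phosphatase, which removes phosphate from lipopolysaccharide and other substrates at the brush border, fell as well. Alpi (chromosome 1, 87098002 to 87101606) measured 539.9, 539.9 and 474 RPKM in controls and 58.2, 33.4 and 52.5 RPKM in DA Cflar-/- Mlkl-/- intestines. No mutant came near a control, and the log2 fold change was -3.43 (SE 0.20, adjusted p = 1.9e-10), leaving 9.27% of the control mean. Close copies of alkaline phosphatase genes exist, and the study kept reads with a single place in the genome, so reads that fit Alpi and a copy equally well are not in these counts. The meprins, metalloproteases of which alpha and beta subunits assemble together, fell by different amounts. Mep1a (chromosome 17, 43474324 to 43502812) went from 168, 162 and 139 RPKM to 29.2, 18.6 and 18.48 RPKM, or a log2 fold change of -2.82 (SE 0.16, adjusted p = 1.38e-10). Mep1b (chromosome 18, 21061923 to 21100199) went from 124, 127 and 125 RPKM to 58.5, 40.4 and 37.8 RPKM, or a log2 fold change of -1.46 (SE 0.20, adjusted p = 7.35e-06). Neither meprin gene had a mutant embryo within the range of the controls.

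**Figure D2:**
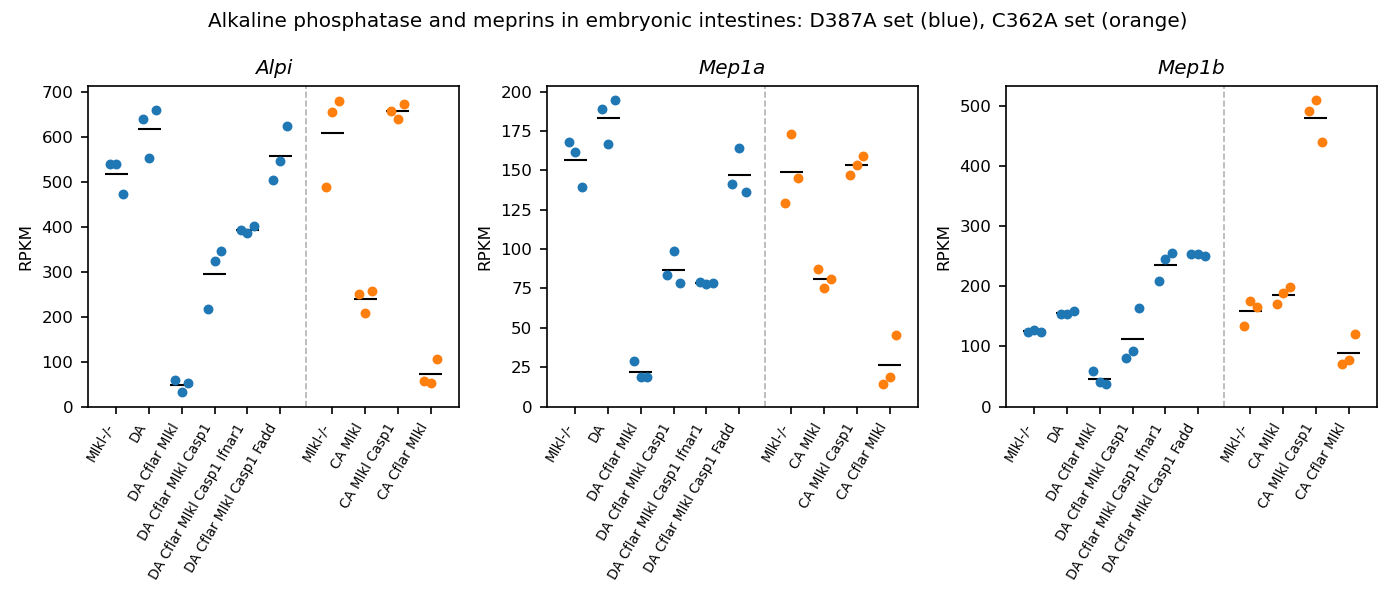
RPKM (vertical axes, linear from 0) of Alpi, Mep1a and Mep1b in each of 30 intestines by genotype, with points for embryos and bars for means of 3, D387A set in blue and C362A set in orange; DA and CA mean homozygous Casp8 D387A and C362A. The lowest values are in DA Cflar Mlkl and CA Cflar Mlkl, and Mep1b in CA Mlkl Casp1 lies at 439.9 to 509.8 RPKM, above every other intestine.

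The membrane peptidases, which trim amino acids or dipeptides from the ends of peptides, showed smaller falls. Anpep (chromosome 7, 79821803 to 79861059) measured 358, 345 and 307 RPKM in controls and 187, 124 and 124 RPKM in DA Cflar-/- Mlkl-/- intestines, a log2 fold change of -1.22 (SE 0.21, adjusted p = 9.68e-05). Enpep (chromosome 3, 129269175 to 129332720) measured 102, 99.7 and 84.3 RPKM against 39.6, 24.7 and 22.1 RPKM, or a log2 fold change of -1.73 (SE 0.16, adjusted p = 8.43e-08). Dpp4 (chromosome 2, 62330073 to 62412231, whose exons overlap the antisense gene Gm13561) measured 46.0, 40.5 and 39.9 RPKM against 21.7, 18.2 and 14.9 RPKM, or a log2 fold change of -1.21 (SE 0.11, adjusted p = 7.89e-08). For all 3 peptidases the highest mutant lay below the lowest control, and the mutants kept 30.2% to 43.4% of the control mean.

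**Figure D3:**
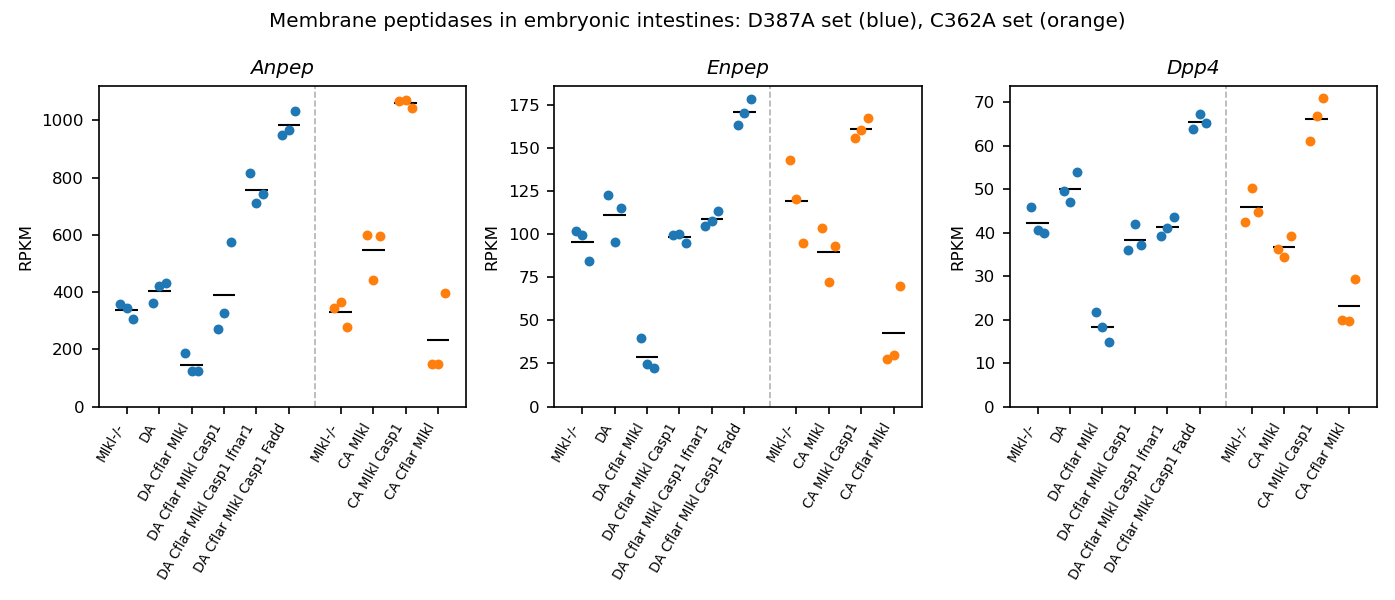
RPKM (vertical axes, linear from 0) of the membrane peptidases Anpep, Enpep and Dpp4 in each of 30 intestines by genotype, with points for embryos and bars for means of 3, D387A set in blue and C362A set in orange; DA and CA mean homozygous Casp8 D387A and C362A. Anpep in DA Cflar Mlkl Casp1 Fadd and CA Mlkl Casp1 lies at 951 to 1033 and 1043 to 1073 RPKM, against 307 to 358 and 278 to 366 RPKM in the controls of each set.

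In all, 8 of the 10 genes were called lower in DA Cflar-/- Mlkl-/- than in Mlkl-/- intestines and none higher, where a call needs an adjusted p under 0.05 and a log2 fold change past 1; of all 18360 genes tested, 12.8% were called lower and 9.4% higher. Control and mutant embryos did not overlap for 9 of the 10 genes, as for 68.1% of all genes. The median log2 fold change of the 10 was -1.59 against -0.01 over all genes tested. In whole tissue, fewer enterocytes and less of these transcripts per enterocyte cannot be told apart. General epithelial genes, which include Krt8, Krt19 and Cldn3, had a median log2 fold change of 0.60 with 3 of 10 called higher and none lower. Their summed levels overlapped, at 6334 to 7276 CPM in controls and 6907 to 7856 CPM in mutants. When libraries were scaled to the reads of these 10 genes, 8 of the 10 enzymes were still called lower.

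Other genes of the absorptive surface moved in the same direction. Of 11 other brush border hydrolases tested, 10 were called lower and 1 higher (median log2 fold change -3.16). The log2 fold change was -8.11 (adjusted p = 7.67e-11) for Mme, which encodes neprilysin, and -5.91 (adjusted p = 1.88e-10) for Enpp7, which encodes alkaline sphingomyelinase, while that of Alpl, the tissue-nonspecific alkaline phosphatase, was 1.42 (adjusted p = 1.21e-05). Of 12 transporters of the released sugars and amino acids, 10 were lower and 1 higher (median -1.89). Slc2a2, which encodes the glucose transporter GLUT2, had a log2 fold change of -9.48 (adjusted p = 1.66e-10), the amino acid transporter gene Slc6a19 one of -4.28 (adjusted p = 4.55e-12), and the glutamate transporter gene Slc1a1 one of 1.11 (adjusted p = 0.000235). Of 14 genes of brush border structure, 9 were lower and none higher (median -1.43), with the largest falls in Espn, which bundles actin (-2.43, adjusted p = 7.03e-09), and the microvillar cadherin Cdhr2 (-2.05, adjusted p = 8.85e-09).

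Of 16 transcription factors of enterocyte genes, 5 were lower and 1 higher (median -0.53). Prdm1 fell by 1.68 (adjusted p = 8.34e-10) on the log2 scale, Maf by 2.32 (adjusted p = 4.06e-10) and Gata4 by 1.07 (adjusted p = 3e-06), and Klf5 rose by 1.07 (adjusted p = 3.88e-07). Hnf4a and Cdx2 differed by less than 2-fold, at log2 fold changes of -0.40 (adjusted p = 0.00475) and -0.55 (adjusted p = 1.63e-05). Markers of other cells shifted beside the enzymes: 5 of 7 goblet cell genes (summed level 1032 to 2265 CPM in controls and 2854 to 3981 CPM in mutants), 4 of 7 stem and cycling cell genes (527 to 565 and 1042 to 1346 CPM) and 5 of 9 leukocyte genes tested (323 to 355 and 239.6 to 415 CPM) were called higher, with 1 leukocyte gene lower. Of 6 genes of hepatocytes, some of which fetal intestine also expresses, 4 were lower and 1, Tat, was higher (summed level 1045 to 1639 CPM in controls and 74.7 to 88.5 CPM in mutants), and 5 of 7 stomach genes were lower, whose sum reached 191.9 CPM in 1 control and 2.57 CPM at the median. Of 3 genes of the proximal gut 1 was lower (Gata4), and of 7 of the distal gut 2 were higher (Slc10a2, Car1) and 2 lower (Fabp6, Aqp8). In the lists of enteroendocrine cells, smooth muscle, fibroblasts, and enteric neurons and glia none was called higher and at most 1 gene lower. The summed levels of smooth muscle genes (5150 to 5597 CPM in controls and 7082 to 8863 CPM in mutants) and of fibroblast genes (3711 to 4089 and 4886 to 5055 CPM) were nonetheless higher in every mutant than in any control, and those of neuron and glia genes (192 to 206 and 139 to 153 CPM) and of proximal gut genes (166 to 185 and 80.4 to 109 CPM) were lower. The part of these shifts in the enzyme values was not tested.

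Casp8 1xDA/1xDA embryos, whose label names no loss of Cflar or Mlkl, gave no call for any of the 10 genes. Their Lct values were 337, 300.2 and 341 RPKM and their Alpi values 639, 554 and 660.2 RPKM, above or within the range of the Mlkl-/- controls. All 10 log2 fold changes lay between 0.21 (Mgam, 95% interval -0.10 to 0.52) and 0.45 (Sis, -0.04 to 0.93), and the lowest adjusted p was 0.966. The controls did not overlap with the DA embryos for Alpi, Anpep, Dpp4 and Mep1b, 4 of 10 genes, as for 15.6% of all genes. The sums of general epithelial genes (7312 to 7726 against 6334 to 7276 CPM), brush border structural genes (8199 to 9289 against 6981 to 7879 CPM) and distal gut and colon genes (165 to 236 against 109.6 to 157 CPM) lay above every control. That of fibroblast genes (3044 to 3614 against 3711 to 4089 CPM) lay below, and the part of these shifts in the enzyme values was not tested. In edgeR 1 of the 18360 genes was called, which was lower (0.00545%), and none higher, whereas 921 had an unadjusted p under 0.05, and limma-voom and DESeq2 also called 0 of the 10.

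With further loss of Casp1, 8 of the 10 enzymes rose above their level in DA Cflar-/- Mlkl-/- intestines, where 8.88% of all genes were called higher and 4.51% lower. The 3 DA Cflar-/- Mlkl-/- Casp1-/- embryos had Lct at 112, 199 and 54.5 RPKM, or a log2 fold change of 7.33 (SE 0.47, adjusted p = 2.26e-09) over the group with caspase-1. Each lay above every embryo with caspase-1 and below every Mlkl-/- control, and the embryos of the group differed widely among themselves. Alpi rose to 217, 324 and 347 RPKM, or a log2 fold change of 2.62 (adjusted p = 9.74e-09). Mep1a rose to 83.4, 99.0 and 78.3 RPKM, by 1.98 (adjusted p = 2.1e-08) on the same scale, and Enpep to 99.6, 100.1 and 95.02 RPKM, by 1.77 (adjusted p = 1.77e-07). All embryos without caspase-1 lay above those with it for these genes. Treh (3.42, adjusted p = 0.00177), Anpep (1.43, adjusted p = 3.67e-05), Mep1b (1.31, adjusted p = 4.67e-05) and Dpp4 (1.07, adjusted p = 8.06e-07) rose too, the last not past the fold threshold without DA Cflar-/- Mlkl-/- embryo 3 (0.94). Mgam went the other way, to 33.5, 41.4 and 36.3 RPKM, at a log2 fold change of -0.57 (adjusted p = 0.00409), within the 2-fold threshold. That of Sis was 0.37 (SE 0.23, adjusted p = 0.198). The groups with and without Casp1 did not overlap for 9 of the 10 genes, nor for 53.2% of all genes. Beside the enzymes, 9 of 11 other hydrolases, 8 of 14 structural genes, 9 of 12 transporters and 4 of 16 transcription factors (Maf, Prdm1, Gata6 and Gata4) were called higher without Casp1, and 1 transporter, Slc1a1, lower. All 4 erythroid genes were higher, and 3 of 7 stem and cycling cell genes and 4 of 9 leukocyte genes tested were lower. Summed levels lay below every embryo with Casp1 for stem and cycling cell genes (658 to 673 against 1042 to 1346 CPM), smooth muscle genes (4611 to 4983 against 7082 to 8863 CPM) and fibroblast genes (3814 to 4480 against 4886 to 5055 CPM). They lay above for neuron and glia genes (162 to 201 against 139 to 153 CPM), liver genes (349 to 597 against 74.7 to 88.5 CPM) and proximal gut genes (138 to 213 against 80.4 to 109 CPM). Their part in the rise of the enzymes was not tested.

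Against Mlkl-/- controls the DA Cflar-/- Mlkl-/- Casp1-/- intestines had 2 of the 10 genes called lower and none higher, where 2.18% of all genes were called lower and 2.16% higher. Treh had 6, 7 and 20 reads and a log2 fold change of -1.84 (SE 0.43, adjusted p = 0.00605), and Lct one of -1.20 (SE 0.35, adjusted p = 0.0205). The Lct call was lost without embryo 1 (-1.15, adjusted p = 0.0614) or embryo 3 (-0.85) of the mutants, without embryo 1 (adjusted p = 0.0642) or 2 (adjusted p = 0.0533) of the controls, and when libraries were scaled to the epithelial genes (-1.05, adjusted p = 0.0644) or only the groups compared were fitted (adjusted p = 0.0899). Alpi (-0.81, adjusted p = 0.0043) and Mep1a (-0.85, adjusted p = 0.000795) were below the controls by less than 2-fold. With Lct and Treh they made 4 of 10 genes without overlap of embryos, against 37.5% of all genes. Enpep at 98.2 and Dpp4 at 38.4 RPKM overlapped the controls, with 95% intervals of the log2 fold change of -0.29 to 0.38 and -0.37 to 0.10. Anpep (0.21, adjusted p = 0.518), Mep1b (-0.15, adjusted p = 0.626), Mgam (-0.02, adjusted p = 0.945) and Sis (0.26, adjusted p = 0.464) overlapped them too. The third of these embryos stood apart: it had the lowest Lct and the highest Alpi, Anpep (576 RPKM against 269 and 326) and Mep1b (164 against 81.5 and 92.1) of its group, and without it Mep1b was no longer called higher than in DA Cflar-/- Mlkl-/- intestines (0.93). Erythroid genes summed to 625 to 3586 CPM in this group against 433 to 936 CPM in controls, which was not tested as a source of this spread. The sum was higher than in any control for stem and cycling cell genes (658 to 673 against 527 to 565 CPM). It was lower for smooth muscle genes (4611 to 4983 against 5150 to 5597 CPM), pancreas genes (2.86 to 4.67 against 12.7 to 59.9 CPM) and liver genes (349 to 597 against 1045 to 1639 CPM). Other genes of the absorptive surface also summed below every control. These were other brush border hydrolases (2165 to 2679 against 4715 to 4975 CPM), transporters (1580 to 1952 against 2508 to 2741 CPM) and structural genes (4663 to 6887 against 6981 to 7879 CPM). What these shifts contribute was not tested.

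With Ifnar1 deleted as well, Lct and Mep1a were below the controls and nearly uniform, while Anpep and Mep1b were above them. The DA Cflar-/- Mlkl-/- Casp1-/- Ifnar1-/- embryos had Lct at 38.0, 40.5 and 42.9 RPKM, below every DA Cflar-/- Mlkl-/- Casp1-/- embryo and every control. The log2 fold change was -2.80 (SE 0.37, adjusted p = 1.25e-05) against controls and -1.59 (SE 0.35, adjusted p = 0.00353) against the group with Ifnar1, the latter not called (adjusted p = 0.0522) when only the groups compared were fitted. Treh measured 1.35, 0.852 and 0.805 RPKM, with embryo 1 above the controls and the others within their range, and was higher than with Ifnar1 at a log2 fold change of 2.00 (adjusted p = 0.00259). Anpep reached 816, 711 and 743 RPKM, called higher than controls (1.17, adjusted p = 0.000269), although under the scaling to epithelial genes its log2 fold change was 0.99 and not called. Mep1b reached 209, 245 and 255 RPKM, called higher than with Ifnar1 (1.07, adjusted p = 0.00129), but not without embryo 1 (0.88) or 2 (0.94) of the comparison group or under the epithelial scaling (0.85). Mep1a stayed at 79.0, 77.7 and 78.5 RPKM, below all controls at a log2 fold change of -0.998 (adjusted p = 3.76e-05), at the fold threshold. It was called lower with no filter (-1.002), with a mean of at least 50 reads (-1.002), under the epithelial scaling (-1.17) and without control embryo 3 (-1.08). Against controls Mep1b (0.91, adjusted p = 0.00112) and Sis (0.97, adjusted p = 0.00172) were higher by less than 2-fold, and Alpi at 392, 387.1 and 402 RPKM (-0.40, adjusted p = 0.0767), Enpep (0.19, adjusted p = 0.348), Dpp4 (-0.03, adjusted p = 0.833), Mgam (0.24, adjusted p = 0.18) and Treh (0.16, adjusted p = 0.739) did not pass the test. The calls numbered 1 higher and 1 lower of 10 against controls (6.76% and 5.64% of all genes), and 2 higher and 1 lower against the group with Ifnar1 (3.28% and 2.03%). Against the latter Anpep (0.95, adjusted p = 0.00366) and Sis (0.71, adjusted p = 0.0202) were higher by less than 2-fold. Anpep was called higher by limma-voom (1.03) and without embryo 3 of the group with Ifnar1 (1.34). Alpi (0.41, adjusted p = 0.0893), Mep1a (-0.15, adjusted p = 0.469), Enpep (0.14, adjusted p = 0.519), Dpp4 (0.10, adjusted p = 0.508) and Mgam (0.27, adjusted p = 0.181) did not pass the test. Embryos did not overlap for 7 of 10 genes in each of these comparisons, as for 56.9% of all genes against controls and 35.7% against the group with Ifnar1. Against controls the count rose to 4 without Ifnar1-/- embryo 1 or 3, when Mep1a and Sis passed the fold threshold. In this group pancreas genes were high, as given above, and 6 of 7 goblet cell genes and 5 of 9 leukocyte genes tested were called higher than in controls. Summed levels above every control were those of general epithelial genes (7619 to 7902 against 6334 to 7276 CPM), goblet cell genes (4581 to 5909 against 1032 to 2265 CPM), enteroendocrine genes (498 to 554 against 333 to 422 CPM), stem and cycling cell genes (601 to 834 against 527 to 565 CPM), leukocyte genes (502 to 594 against 323 to 355 CPM) and distal gut and colon genes (286 to 417 against 109.6 to 157 CPM). Below every control were smooth muscle genes (4259 to 4804 against 5150 to 5597 CPM), fibroblast genes (3103 to 3266 against 3711 to 4089 CPM), neuron and glia genes (128 to 135 against 192 to 206 CPM) and liver genes (192 to 326 against 1045 to 1639 CPM). So were other brush border hydrolases (2249 to 2773 against 4715 to 4975 CPM) and transporters (1982 to 2221 against 2508 to 2741 CPM), while enterocyte transcription factors (2966 to 3122 against 2523 to 2835 CPM) lay above. Stomach genes summed to 29.6 to 46.1 CPM here and 1.79 to 192 CPM in controls, where 1 library held the high value. Against the group with Ifnar1, the sums were higher without overlap for goblet cell genes (4581 to 5909 against 1647 to 3275 CPM), enteroendocrine genes (498 to 554 against 339 to 473 CPM), pancreas genes (59.2 to 134 against 2.86 to 4.67 CPM), stomach genes (29.6 to 46.1 against 1.77 to 14.5 CPM) and distal gut and colon genes (286 to 417 against 48.9 to 133 CPM). They were lower for fibroblast genes (3103 to 3266 against 3814 to 4480 CPM), neuron and glia genes (128 to 135 against 162 to 201 CPM) and liver genes (192 to 326 against 349 to 597 CPM). Sums of transporters (1982 to 2221 against 1580 to 1952 CPM) and enterocyte transcription factors (2966 to 3122 against 2348 to 2845 CPM) were higher. The part of these shifts in the enzyme values was not tested.

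The DA Cflar-/- Mlkl-/- Casp1-/- Fadd-/- embryos had no disaccharidase called against controls and lay above them in Anpep and Mep1b. Lct measured 142, 176 and 202 RPKM, all below the controls, by a log2 fold change of -0.70 (SE 0.34, adjusted p = 0.181) with a 95% interval of -1.42 to 0.03. Alpi at 504, 547 and 625 RPKM and Mep1a at 142, 164 and 136 RPKM overlapped the controls. Anpep reached 951, 966 and 1033 RPKM, or a log2 fold change of 1.55 (adjusted p = 9.4e-05) over controls. Mep1b reached 254, 254 and 251 RPKM, or a log2 fold change of 1.01 (adjusted p = 0.00175), which was 0.91 and not called under the epithelial scaling. All 3 embryos lay above all controls for both genes. Enpep (0.84, adjusted p = 0.00135) and Dpp4 (0.64, adjusted p = 0.000719) lay above all controls by less than 2-fold. Treh had 17, 25 and 24 reads and a log2 fold change of -0.92 (adjusted p = 0.117), Mgam one of 0.18 (adjusted p = 0.43) and Sis one of 0.79 (adjusted p = 0.0209). Thus 2 of 10 were called higher than in controls and none lower, against 2.81% and 0.975% of all genes. The same counts, of Anpep (1.33, adjusted p = 0.00046) and Mep1b (1.17, adjusted p = 0.000751), separated this group from DA Cflar-/- Mlkl-/- Casp1-/- intestines with Fadd, where 2.56% of all genes were higher and 0.877% lower. Alpi (0.92, adjusted p = 0.0021), Mep1a (0.76, adjusted p = 0.00188), Enpep (0.80, adjusted p = 0.00239) and Dpp4 (0.77, adjusted p = 0.000197) were higher than with Fadd by less than 2-fold. Lct (0.51, adjusted p = 0.337), Treh (0.92, adjusted p = 0.175), Sis (0.53, adjusted p = 0.105) and Mgam (0.20, adjusted p = 0.367) had log2 fold changes above 0 that did not pass the test. Embryos did not overlap for 7 of 10 genes against either group, as for 38.0% of all genes against controls and 29.6% against the group with Fadd. The count of calls against the latter was 1 without embryo 1 of that group (Mep1b was lost), 3 without its embryo 2 (Lct was added) and 4 without embryo 3, which stood apart (Treh and Alpi were added). Of the other hydrolases, structural genes, transporters and transcription factors, the only gene called against controls was Slc2a5, which encodes a fructose transporter and was lower. Sums nonetheless lay above every control for structural genes (8126 to 9073 against 6981 to 7879 CPM), transporters (2909 to 3181 against 2508 to 2741 CPM) and transcription factors (2994 to 3158 against 2523 to 2835 CPM). Those of the other hydrolases overlapped. Beside the enzymes, sums lay below every control for smooth muscle genes (4352 to 4840 against 5150 to 5597 CPM), fibroblast genes (3131 to 3589 against 3711 to 4089 CPM) and neuron and glia genes (158 to 165 against 192 to 206 CPM), and above for leukocyte genes (416 to 435 against 323 to 355 CPM). Against the group with Fadd they were lower without overlap for stem and cycling cell genes (534 to 591 against 658 to 673 CPM) and fibroblast genes (3131 to 3589 against 3814 to 4480 CPM). They were higher for liver genes (1054 to 1510 against 349 to 597 CPM) and distal gut and colon genes (132.9 to 169 against 48.9 to 132.8 CPM). Higher without overlap were also other brush border hydrolases (4548 to 5116 against 2165 to 2679 CPM) and transporters (2909 to 3181 against 1580 to 1952 CPM). So were structural genes (8126 to 9073 against 4663 to 6887 CPM) and enterocyte transcription factors (2994 to 3158 against 2348 to 2845 CPM). The part of these shifts in the enzyme values was not tested.

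Across the D387A set Lct thus ran from DA through controls, Casp1-/- Fadd-/-, Casp1-/- and Casp1-/- Ifnar1-/- to DA Cflar-/- Mlkl-/-. In that order the neighbours that overlapped were DA with the controls and Casp1-/- Fadd-/- with Casp1-/-, and the other neighbours were separated. Anpep had another order: DA Cflar-/- Mlkl-/- was lowest, controls lay below DA, and Casp1-/- overlapped both. Above these lay Casp1-/- Ifnar1-/-, and Casp1-/- Fadd-/- was highest.

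**Figure D4:**
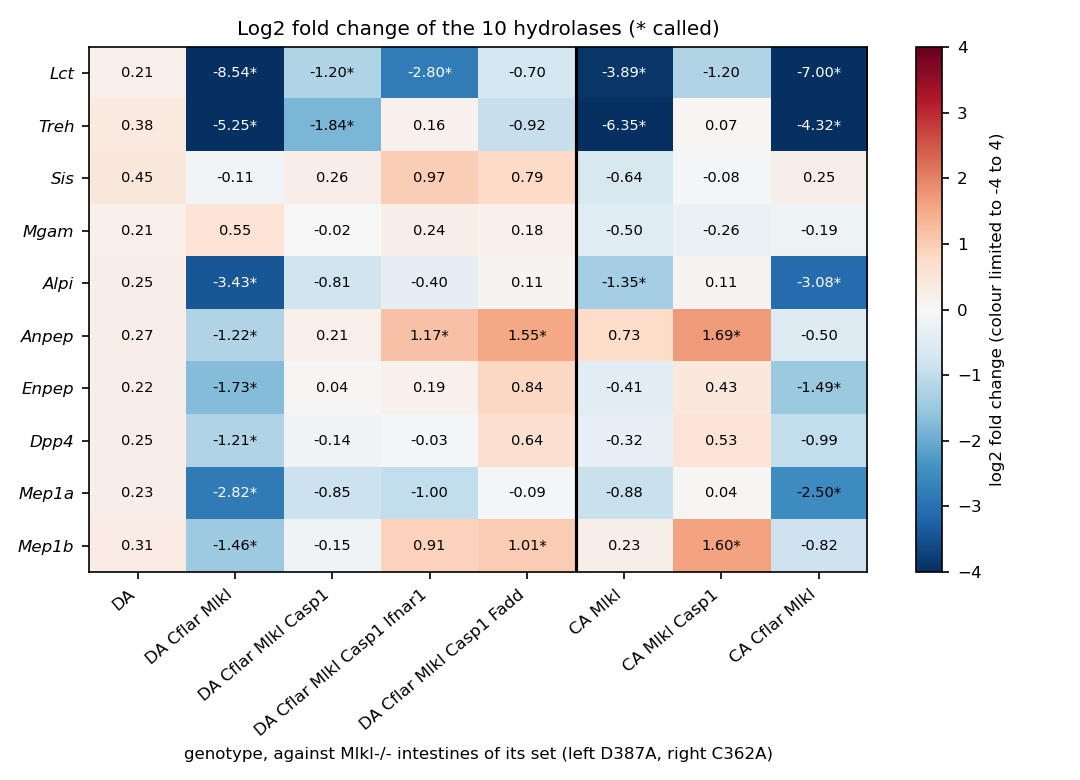
Log2 fold change of each of the 10 enzymes (rows) in each mutant genotype against the Mlkl-/- intestines of its own set (columns), written in each cell and coloured from blue (lower) to red (higher), with the colour limited to -4 to 4 and asterisks for calls; DA and CA mean homozygous Casp8 D387A and C362A. Lct and Treh hold the largest falls, and Anpep and Mep1b the calls above controls.

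With catalytically inactive caspase-8 3 of the 10 enzymes fell and none rose. In CA Mlkl-/- intestines Lct measured 19.8, 11.7 and 23.3 RPKM, against 243, 313 and 259 RPKM in the Mlkl-/- controls of that set, and the log2 fold change was -3.89 (SE 0.65, adjusted p = 0.000238). Treh had 0, 0 and 1 reads against 15, 64 and 30 reads, so that 1 read against 109 left 0.871% of control (95% exact interval 0.0219% to 4.96%). Its log2 fold change was -6.35 (SE 0.94, adjusted p = 7.76e-05). Alpi measured 251, 208 and 257 RPKM against 489, 655 and 682 RPKM, or a log2 fold change of -1.35 (SE 0.24, adjusted p = 0.000373). In each of these genes the highest mutant lay below the lowest control. Mep1a was lower by less than 2-fold (-0.88, adjusted p = 0.0308) and was called under the epithelial scaling (-1.02). Also lower by less than 2-fold was Mgam (-0.50, adjusted p = 0.0272), at 27.1, 25.0 and 27.2 RPKM against 44.3, 37.9 and 29.7 RPKM. Anpep was at 599, 443 and 598 RPKM, each above every control, at a log2 fold change of 0.73 (SE 0.32, adjusted p = 0.0811) that missed the threshold. Mep1b (0.23, adjusted p = 0.352), Enpep (-0.41, adjusted p = 0.269), Dpp4 (-0.32, adjusted p = 0.101) and Sis (-0.64, adjusted p = 0.165) were not called. Of all 19408 genes tested, 7.55% were called lower and 10.4% higher. Embryos did not overlap for 8 of the 10 enzymes and for 53.6% of all genes.

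Beside these enzymes, 7 of 11 other hydrolases tested were lower and 1 higher, with Mme at -4.96 (adjusted p = 4.78e-07), Asah2, a ceramidase gene, at -2.77 (adjusted p = 2.19e-07) and Alpl at 1.61 (adjusted p = 0.000967). Of the 12 transporters 6 were lower, led by Slc2a2 (-5.68, adjusted p = 2.17e-08) and Slc6a20a (-2.59, adjusted p = 1.66e-06). Of the 14 structural genes, Pls1, which encodes a plastin of microvilli (-1.69, adjusted p = 6.18e-06), and Myo7b (-1.06, adjusted p = 2.45e-05) were lower and Tmigd1 was higher (1.48, adjusted p = 0.000305). Of the transcription factors, Maf (-1.30, adjusted p = 1.83e-05) and Gata6 (-1.25, adjusted p = 9.28e-06) were lower and Klf4 was higher (1.57, adjusted p = 1.66e-06). Prdm1 (-0.74, adjusted p = 0.00054), Gata4 (-0.92, adjusted p = 0.00129) and Cdx2 (-0.56, adjusted p = 0.00652) were lower by less than 2-fold, and Hnf4a was at -0.11 (adjusted p = 0.698). General epithelial genes summed to 6800 to 8392 CPM against 6572 to 7210 CPM in controls. Sums above every control were those of goblet cell genes (4003 to 4154 against 1826 to 2395 CPM), enteroendocrine genes (463 to 548 against 389.7 to 432 CPM), leukocyte genes (823 to 903 against 313 to 396 CPM) and distal gut and colon genes (149 to 173 against 69.9 to 128 CPM). Below every control were liver genes (618 to 789.5 against 1283 to 1603 CPM) and proximal gut genes (104 to 158 against 187 to 223 CPM). Called higher were 1 of 10 general epithelial, 4 of 7 goblet cell and 7 of 9 leukocyte genes tested, and 3 of 4 erythroid genes were called lower. The part of these shifts in the enzyme values was not tested.

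With loss of Casp1 in CA Mlkl-/- embryos 4 of the 10 enzymes rose and none fell, where 5.6% of all genes were called higher and 5.72% lower. Lct rose to 107, 111 and 136 RPKM, or a log2 fold change of 2.69 (adjusted p = 0.00435), and Treh to 50, 24 and 31 reads, or a log2 fold change of 6.42 (adjusted p = 0.000146). Alpi rose to 658, 641 and 673 RPKM (1.46, adjusted p = 0.000377) and Mep1b to 491, 509.8 and 439.9 RPKM (1.37, adjusted p = 0.000119). The other peptidases and Mep1a were higher by less than 2-fold, at log2 fold changes of 0.85 to 0.96 and adjusted p of 0.000678 to 0.0351. The embryos of both groups did not overlap for any of the 10 genes, as for 53.5% of all genes, and Mgam (0.23, adjusted p = 0.306) and Sis (0.57, adjusted p = 0.246) were not called. Of the other lists, 6 of 11 hydrolases and 7 of 12 transporters were higher, with 1 hydrolase lower, and 6 of 9 leukocyte genes tested were lower. The sums lay below every embryo with Casp1 for goblet cell genes (1908 to 3928 against 4003 to 4154 CPM), stem and cycling cell genes (462 to 512 against 573 to 606 CPM), fibroblast genes (1156 to 1846 against 1960 to 2565 CPM), neuron and glia genes (78.3 to 96.2 against 99.9 to 132 CPM) and leukocyte genes (452 to 483 against 823 to 903 CPM). They lay above for general epithelial genes (8922 to 9466 against 6800 to 8392 CPM), liver genes (1013 to 1944 against 618 to 789.5 CPM), proximal gut genes (193 to 248 against 104 to 158 CPM) and distal gut and colon genes (191 to 294 against 149 to 173 CPM). Those of brush border structural genes (8755 to 9778 against 5321 to 6224 CPM) and enterocyte transcription factors (2737 to 3422 against 2137 to 2635 CPM) lay above too. What these shifts contribute to the enzyme values was not tested.

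In the same CA Mlkl-/- Casp1-/- intestines Anpep at 1068, 1073 and 1043 RPKM and Mep1b were higher than in the Mlkl-/- controls, at log2 fold changes of 1.69 (adjusted p = 0.0013) and 1.60 (adjusted p = 3.14e-05). This makes 2 of 10 higher and none lower against 6.79% and 3.73% of all genes. Lct stayed below all controls at a log2 fold change of -1.20 (SE 0.59, adjusted p = 0.126), which was not called here but was called when only these groups were fitted (adjusted p = 0.000236), with no filter (-1.23, adjusted p = 0.0122) and under the epithelial scaling (-1.60, adjusted p = 0.0287). Dpp4 (0.53, adjusted p = 0.0138) and Enpep (0.43, adjusted p = 0.254) lay above all controls by less than 2-fold, and Enpep did not pass the test. Treh (0.07, adjusted p = 0.925), Alpi (0.11, adjusted p = 0.738), Mep1a (0.04, adjusted p = 0.932), Mgam (-0.26, adjusted p = 0.235) and Sis (-0.08, adjusted p = 0.881) overlapped the controls, and 5 of the 10 genes did not, against 51.0% of all genes. Against controls the sums were higher without overlap for general epithelial genes (8922 to 9466 against 6572 to 7210 CPM), enteroendocrine genes (498 to 544 against 389.7 to 432 CPM), leukocyte genes (452 to 483 against 313 to 396 CPM) and distal gut and colon genes (191 to 294 against 69.9 to 128 CPM). So were those of brush border structural genes (8755 to 9778 against 7165 to 8341 CPM) and transporters (3677 to 3837 against 2848 to 3164 CPM). The sum was lower for neuron and glia genes (78.3 to 96.2 against 128 to 185 CPM). Their part in the enzyme values was not tested.

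With loss of Cflar in CA Mlkl-/- embryos 6 of the 10 enzymes fell, whereas no disaccharidase other than Lct was called. CA Cflar-/- Mlkl-/- intestines had Lct at 0.661, 0.497 and 5.17 RPKM, Treh at 4, 0 and 1 reads, Alpi at 57.7, 52.7 and 106 RPKM and Mep1a at 14.3, 18.8 and 45.7 RPKM. The third embryo was the highest of the group for Lct, Alpi and Mep1a and for Anpep (149.7, 149 and 397 RPKM), Enpep (27.8, 30.0 and 69.8 RPKM), Dpp4 (19.99, 19.7 and 29.4 RPKM) and Mep1b (70.8, 76.8 and 121 RPKM). Against CA Mlkl-/- intestines 6 of 10 were called lower and none higher (4.62% and 1.45% of all genes), namely Lct (-3.11, adjusted p = 0.00407), Alpi (-1.73, adjusted p = 0.000384), Mep1a (-1.63, adjusted p = 0.00252), Anpep (-1.24, adjusted p = 0.0157), Enpep (-1.08, adjusted p = 0.0183) and Mep1b (-1.06, adjusted p = 0.00194). Dpp4 was lower by less than 2-fold (-0.67, adjusted p = 0.00707). Treh, from few reads (2.03, adjusted p = 0.408), Sis (0.89, adjusted p = 0.0969) and Mgam (0.30, adjusted p = 0.233) had log2 fold changes above 0 that did not pass the test. These lower calls fell to 3 without embryo 1 or 2 of the Cflar-/- group, where Anpep, Enpep and Mep1b were lost and, without embryo 2, Sis was called higher (1.24). They fell to 4, without Anpep and Enpep, when CA Mlkl-/- embryo 1 or 3 was left out or only the groups compared were fitted. With 1 library left out, the log2 fold change ranged from -4.99 to -2.64 for Lct, -2.12 to -1.54 for Alpi and -2.30 to -1.33 for Mep1a. The range was -1.87 to -0.998 for Anpep, -1.64 to -0.85 for Enpep and -1.34 to -0.91 for Mep1b. Against controls 5 of 10 were called lower and none higher (11.2% and 13.4% of all genes): Lct (-7.00, adjusted p = 3e-06), Treh (-4.32, adjusted p = 0.000206), Alpi (-3.08, adjusted p = 2.11e-07), Mep1a (-2.50, adjusted p = 1.41e-05) and Enpep (-1.49, adjusted p = 0.000627). Without the third embryo 8 were called, with Anpep (-1.15), Dpp4 (-1.21) and Mep1b (-1.11) added. With 1 library left out, log2 fold changes against controls ranged from -8.88 to -6.54 for Lct and from -5.89 to -3.74 for Treh. For Alpi the range was -3.47 to -2.90, for Mep1a -3.17 to -2.21 and for Enpep -2.06 to -1.26. Dpp4 stood at the fold threshold with all embryos (-0.99, adjusted p = 7.73e-05) and was called by limma-voom (-1.01) and DESeq2 (-1.01). With all embryos Anpep (-0.50, adjusted p = 0.199) and Mep1b (-0.82, adjusted p = 0.00243) were not called, nor were Mgam (-0.19, SE 0.17, adjusted p = 0.349) and Sis (0.25, SE 0.34, adjusted p = 0.572). Embryos did not overlap for 7 of 10 genes with controls and for 7 of 10 with CA Mlkl-/- intestines, against 55.0% and 32.3% of all genes. Among the transcription factors, Prdm1 (-1.82, adjusted p = 1.13e-07) and Gata4 (-1.44, adjusted p = 2.35e-05) were called lower, and Hnf4a (-0.68, adjusted p = 0.0107) and Cdx2 (-0.77, adjusted p = 0.000486) were lower by less than 2-fold. Pancreas genes, of which 6 of 6 tested were called higher, also varied in this group, as given above. Sums above every control were found for general epithelial genes (7436 to 8251 against 6572 to 7210 CPM), goblet cell genes (3899 to 4258 against 1826 to 2395 CPM), stem and cycling cell genes (823 to 1127 against 392 to 578 CPM), smooth muscle genes (6093 to 7167 against 2604 to 4257 CPM), leukocyte genes (460.2 to 578 against 313 to 396 CPM) and stomach genes (3.62 to 7.15 against 1.75 to 3.23 CPM). Sums below every control were found for neuron and glia genes (67.0 to 120.1 against 128 to 185 CPM), liver genes (34.6 to 214 against 1283 to 1603 CPM) and proximal gut genes (86.9 to 126 against 187 to 223 CPM). So it was for other brush border hydrolases (324 to 953 against 4887 to 6150 CPM) and structural genes (2410 to 4018 against 7165 to 8341 CPM). Transporters (700 to 1207 against 2848 to 3164 CPM) and enterocyte transcription factors (1582 to 2171 against 2356 to 2949 CPM) were lower too. Against CA Mlkl-/- intestines the sums of stem and cycling cell genes (823 to 1127 against 573 to 606 CPM) and smooth muscle genes (6093 to 7167 against 3240 to 4511 CPM) were higher without overlap. Those of leukocyte genes (460.2 to 578 against 823 to 903 CPM), liver genes (34.6 to 214 against 618 to 789.5 CPM) and distal gut and colon genes (73.2 to 96.1 against 149 to 173 CPM) were lower. So were those of other hydrolases (324 to 953 against 1761 to 2286 CPM), structural genes (2410 to 4018 against 5321 to 6224 CPM) and transporters (700 to 1207 against 1746 to 2028 CPM). The part of these shifts in the enzyme values was not tested.

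The effect of a Casp8 mutation together with loss of cFLIP, both in the absence of MLKL, was then compared between the alleles, each against its own Mlkl-/- controls. No enzyme passed the interaction test, where of all 19643 genes 0.0102% were called with a higher and 0.0662% with a lower value for D387A, and 4043 had an unadjusted p under 0.05. The D387A minus C362A differences ranged from -1.53 for Lct (95% interval -3.09 to 0.02, adjusted p = 0.249) to 0.74 for Mgam (95% interval 0.28 to 1.19, adjusted p = 0.0865). The differences of the other 8 genes lay between -0.96 (Treh, adjusted p = 0.736) and -0.22 (Dpp4, adjusted p = 0.525). limma-voom and DESeq2 also called 0 of the 10.

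Loss of Casp1 changed 3 enzymes to a different extent in DA Cflar-/- Mlkl-/- and in CA Mlkl-/- intestines, which differ in Cflar as well as in the Casp8 allele. The difference of the log2 fold changes was 4.66 (SE 0.77, adjusted p = 0.000338) for Lct, 1.18 (SE 0.30, adjusted p = 0.00883) for Alpi and 1.08 (SE 0.35, adjusted p = 0.0321) for Mep1a, each a larger rise in the D387A set. Of all genes 4.9% were called with a higher and 0.825% with a lower value, by sign, for the D387A set. The starting levels differed, since Lct was at 0.297 to 0.997 RPKM in DA Cflar-/- Mlkl-/- and 11.7 to 23.3 RPKM in CA Mlkl-/- intestines, while the levels without Casp1 were 54.5 to 199 and 107 to 136 RPKM. The count of 3 fell to 1, Lct alone, without DA Cflar-/- Mlkl-/- embryo 2. The Mep1a call was lost without any of 8 of the 12 embryos, with adjusted p from 0.0502 to 0.0867. Enpep (0.95, adjusted p = 0.0492) and Mgam (-0.78, adjusted p = 0.0169) differed by less than 2-fold. Enpep was called under the epithelial scaling (1.38), without DA Cflar-/- Mlkl-/- embryo 1 (1.25) and without CA Mlkl-/- embryo 2 (1.07). Anpep (0.49, adjusted p = 0.388), Dpp4 (0.24, adjusted p = 0.384) and Sis (-0.17, adjusted p = 0.823) did not pass the test, nor did Mep1b (-0.04, SE 0.28, adjusted p = 0.946) or Treh (-2.92, SE 1.83, adjusted p = 0.276), the latter from few reads.

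**Figure D5:**
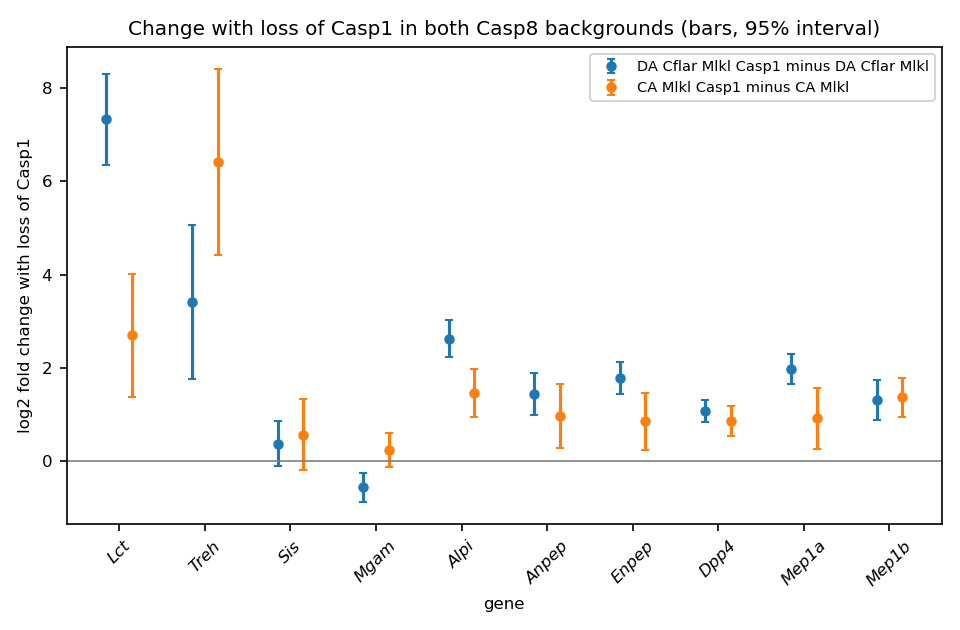
Log2 fold change of each of the 10 enzymes with loss of Casp1 (vertical axis) in DA Cflar-/- Mlkl-/- intestines (blue) and in CA Mlkl-/- intestines (orange), as estimates with 95% intervals from the fits of 3 embryos a group; DA and CA mean homozygous Casp8 D387A and C362A. Lct is at 7.33 in blue and 2.69 in orange, and Mep1b at 1.31 and 1.37.

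MEFs carry no brush border, and 4 of the 10 genes, Sis, Treh, Alpi and Mep1b, had 0 reads in all 6 libraries. Mep1a had at most 1 read and Lct 12, 6 and 11 reads in Mlkl-/- and 0, 4 and 4 reads in DA Cflar-/- Mlkl-/- MEFs, which did not pass the filter on low counts. Lct was the 1 gene of the 10 whose groups did not overlap, as for 12.5% of the genes that passed it. Anpep, an enzyme also known on fibroblasts, was at 14.6, 11.5 and 8.77 RPKM in Mlkl-/- and 13.0, 13.1 and 11 RPKM in DA Cflar-/- Mlkl-/- MEFs, and Enpep at 5.42, 2.54 and 2.65 RPKM and 4.47, 2.65 and 1.45 RPKM. Both pairs of groups overlapped. Dpp4 at 0.388, 0.337 and 0.471 RPKM and 0.338, 0.341 and 0.234 RPKM, and Mgam at 0.0909, 0.108 and 0.170 RPKM and 0.0481, 0.155 and 0.141 RPKM, were near the limit of detection. These 4 genes could be tested and none was called: the log2 fold changes were 0.08 for Anpep (95% interval -0.30 to 0.46), -0.33 for Enpep (-1.28 to 0.63), -0.39 for Dpp4 (-0.98 to 0.20) and -0.07 for Mgam (-1.12 to 0.97). In edgeR 11 of the 15465 genes tested were called, all higher (0.0711%), and 1001 had an unadjusted p under 0.05. Of the 4 enzymes tested, the lowest unadjusted p was 0.164, and limma-voom and DESeq2 also called 0 of the 10.

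Most of the enzymes varied together over the 30 intestines, as described by Pearson's r of log2 CPM after subtraction of the mean of each set's controls. Embryos of a genotype share that genotype and the set its controls, so r mostly follows the means of the groups and is given as a description. The highest values were those among Lct, Alpi and Mep1a (r = 0.965 to 0.967), of Dpp4 with Enpep (0.964) and of Anpep with Mep1b (0.961). Pairs across these were close behind, as Alpi with Dpp4 (0.935) and Enpep (0.929), Mep1a with Dpp4 (0.922), Lct with Enpep (0.893) and Dpp4 with Mep1b (0.882), whereas Lct and Anpep were further apart (0.582). The subunits of meprin had r = 0.743. Mgam had r between -0.242 and -0.006 with Lct, Alpi and the 5 peptidases, and Sis between 0.126 and 0.329 with the same genes. The RPKM of Sis were at most 1.05 in any intestine.

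The genes most like each enzyme were sought among 14432 genes with a mean of at least 50 reads, which leaves out Treh. Lct was most like Mcoln3, Slc23a1 and Pdzk1 (r = 0.990 to 0.991), the latter a scaffold gene of apical transporters, and Fcgrt and Creb3l3 were among those most like Alpi (0.991 and 0.990). Mep1a was near to Naaladl1 and Slc46a3 (0.993 and 0.989). For Anpep these were Cyp3a13, C2 and Anks4b (0.960 to 0.980), and for Mep1b Anks4b, Optn and Tfec (0.973 to 0.980). Dpp4 and Enpep shared Muc13 and Slc5a1, the gene of the sodium-glucose cotransporter (0.963 to 0.977), with Btnl6 (0.970) and Mov10 (0.974) as the third. Mgam was nearest to Sh3rf1, Ecpas and Gm12097 (0.864 to 0.879), and Sis to Lypla1, Tcf23 and Plekha8 (0.706 to 0.717).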

How the data were processed

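RNA-seq of 30 whole intestines at E18.5 and 6 MEF libraries was analysed from the deposited tables. The authors aligned reads with GSNAP to GRCm38 per the labels and deposited counts per gene and RPKM; the counts were tested, and the deposited RPKM served only as an alternative for levels. The labels and the study's methods name different library kits and sequencers, so the protocol and its strand are uncertain. Per the study's methods, reads that mapped to more than one place were not used. The annotation and the rule for overlapping genes are not given in the sources used here. Libraries are labelled as biological replicates.

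Counts of each set were fitted with edgeR 4.0.16 in R 4.3.3 (TMM, filterByExpr with a minimum count of 10 and a total of 15, quasi-likelihood test, Benjamini-Hochberg adjustment over all genes tested). A gene was called at an adjusted p under 0.05 and a log2 fold change above 1 or below -1. Differences between sets were tested as interactions over all 30 intestines. SE is the fold change divided by the root of F. Pairs of libraries within groups differed by 5.01 to 70.8 times the counting noise, more than a recount of the same library would give. Whether any libraries shared an embryo or RNA cannot be told from this. The scripts were tested on simulated counts. The 10 genes and all gene lists were chosen with earlier results of these data known. The 10 genes are given by value or range in each comparison; of each list of enterocyte function the 2 called genes with the largest rise and fall are named in DA Cflar-/- Mlkl-/- and CA Mlkl-/- against Mlkl-/- intestines, with Prdm1, Hnf4a, Cdx2 and Gata4 always, and genes named elsewhere from lists were chosen after their values were seen. Most alike genes were ranked by Pearson's r of log2 CPM with a prior count of 2. Some genes that these rules would name are not reported here.

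Libraries with the same replicate number had r = 0.181 to 0.31 in 3 of 3 pairs of MEFs and r = -0.438 to 0.291 in intestines. The labels give no pairing, so whether the numbers pair any libraries is not known. The main fits used no pairing, also in MEFs. The tests were repeated with DESeq2 1.42.0, with its size factors in edgeR, with limma-voom (limma 3.58.1), and with these other settings: no filter, a mean of at least 50 reads, a prior count of 2, a replicate block, scaling to 10 epithelial genes, only the groups compared, and leaving out each library.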

Additional observations from a re-analysis of the deposited data

Results flagged for a closer look

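For 3 enzymes the log2 fold change with loss of Casp1 differed between DA Cflar-/- Mlkl-/- and CA Mlkl-/- intestines by the interaction test of edgeR. It was larger in the D387A set by 4.66 for Lct, 1.18 for Alpi and 1.08 for Mep1a. Both backgrounds differ in Cflar as well as in the Casp8 allele, and which of these goes with the difference cannot be told apart.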

How the results depend on the processing

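With 3 embryos a group, precision was lowest for the fold changes of genes with few reads, such as Treh, and protein and cell numbers were not measured. The counts of calls given for each comparison held within 1.5 times under each alternative except as follows. DA Cflar-/- Mlkl-/- Casp1-/- against control intestines gave 1 call with a mean of at least 50 reads (which removes Treh), under scaling to epithelial genes and with only the groups compared, and DA Cflar-/- Mlkl-/- Casp1-/- Fadd-/- against controls gave 1 under the epithelial scaling. Leaving out 1 library gave counts of 1 to 2 for the former, 2 to 4 for the Ifnar1-/- group against controls, 1 to 4 for loss of Fadd, 5 to 8 for CA Cflar-/- Mlkl-/- against controls, 3 to 6 for loss of Cflar with CA, and 1 to 4 for the difference between Casp1 effects. The replicate block gave 6 calls in CA Cflar-/- Mlkl-/- against control intestines in place of 5, adding Dpp4 (-1.01), and in no other comparison changed the count.

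Of fold changes that were not called, the sign turned under scaling to epithelial genes for Mgam in DA Cflar-/- Mlkl-/- Casp1-/- against controls (0.0775), Treh in the Ifnar1-/- group against controls (-0.0173), Mgam (-0.0026), Dpp4 (-0.17) and Enpep (-0.13) with loss of Ifnar1, Treh (-0.32), Alpi (-0.30) and Mep1a (-0.37) in CA Mlkl-/- Casp1-/- against controls, Mgam with loss of Casp1 in CA (-0.027), and Sis (0.26) and Mep1b (0.36) in the difference between Casp1 effects, where Mep1b was at 0.0156 with a mean of at least 50 reads. When 1 library was left out it turned for the fold changes that follow, given with their ranges: in DA against control intestines Treh (-0.11 to 0.64), and in DA Cflar-/- Mlkl-/- Casp1-/- against control intestines Mgam (-0.12 to 0.0483), Anpep (-0.18 to 0.42), Enpep (-0.0392 to 0.0910), Mep1b (-0.53 to 0.0326), and in the Ifnar1-/- group against controls Treh (-0.11 to 0.28), Dpp4 (-0.0824 to 0.0284), and in CA Mlkl-/- Casp1-/- against control intestines Sis (-0.22 to 0.0280), Treh (-0.34 to 0.61), Alpi (-0.0549 to 0.18), Mep1a (-0.0856 to 0.14), and in CA Cflar-/- Mlkl-/- against control intestines Sis (-0.31 to 0.60), and in MEFs Mgam (-0.33 to 0.29), Anpep (-0.0835 to 0.28), Enpep (-0.81 to 0.13), and in the difference between alleles Lct (-2.00 to 0.33), Sis (-0.70 to 0.20), Treh (-1.52 to 0.58), Alpi (-0.53 to 0.0309), Enpep (-0.54 to 0.31), Mep1a (-0.61 to 0.34), and in the difference between Casp1 effects Mep1b (-0.40 to 0.19). Of 120 levels by group and gene, 62 moved by more than 1 SD with the RPKM as deposited, which are scaled to another total. The cause of these changes was not tested.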
